A study of Mus musculus with 6 samples.

Results

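The genes described here encode splicing factors and proteins of the spliceosome, the machine that removes introns from pre-mRNA. They were taken by symbol: the SR proteins named Srsf, the heterogeneous nuclear ribonucleoproteins (hnRNPs) named Hnrnp, the SF3A and SF3B subunits named Sf3a and Sf3b, the pre-mRNA processing factors named Prpf, and the proteins of small nuclear ribonucleoproteins (snRNPs) named Snrp. This gave 61 genes of the 19505 measured, of which 19 were Hnrnp, 12 Prpf, 11 Snrp, 10 Srsf and 9 Sf3 genes, and the rule reads symbols, not differences between the groups. Their mRNA was measured on Clariom S mouse arrays in CD4+YFP+ regulatory T (Treg) cells sorted from peripheral lymph nodes and spleens. The control cells came from female Foxp3Cre/wt mice and the Rbx1&Sag-deficient cells from female Foxp3Cre/wt;Rbx1fl/fl;Sagfl/fl mice, with 3 samples of each genotype, each pooled from 2 to 3 mice of 8 to 12 weeks. In both groups a fusion of YFP and Cre was made from the Foxp3 locus, so that Cre acted in Foxp3-expressing cells. Foxp3 is X-linked, and each of these females also kept Treg cells that use the wild-type Foxp3 allele and do not express the Cre allele. RBX1 and SAG, whose gene symbol is Rnf7, are the RING subunits of cullin-RING ubiquitin ligases. The comparison asks how mRNA levels of the splicing genes differed between Treg cells with and without the targeted deletion of both subunits.

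A pre-mRNA intron is first marked by the U1 snRNP at its 5′ end and by the U2 snRNP at the branch point, after which the U4/U6.U5 tri-snRNP joins and the complex is rearranged into its catalytic form. The Sm proteins form a ring on the snRNAs, SF3A and SF3B belong to U2, and many of the Prpf proteins belong to the tri-snRNP or to the Prpf19 complex that accompanies activation. SR proteins mostly promote and many hnRNPs mostly repress the use of nearby splice sites, and in T cells such proteins set the exons retained in Ptprc, which encodes CD45.

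Signals are log2 values as the authors deposited them, and a difference is always the mean of the Rbx1&Sag-deficient arrays minus the mean of the control arrays. Rbx1 fell by 4.24 on the log2 scale (SE 0.30, limma adjusted p = 0.000237, n = 3 per group), whereas Rnf7 differed by -0.57 (SE 0.41, adjusted p = 0.379), and whether its probes lie in the deleted part is not known. Sample titles carry the word muscle, while the cell type labels say Treg, which are followed here. Ckm, the muscle creatine kinase, read 4.57 to 5.15, somewhat above the median of all genes in each array, and Acta1, skeletal actin, read 2.85 to 3.28, below it. Cd3d of the T cell receptor complex read 15.28 to 16.63, above the upper quartile. The upper quartile of all genes was 7.77 to 7.88 in the control arrays and 6.99 to 7.48 in the Rbx1&Sag-deficient arrays, while the median was 4.04 to 4.14 and 4.16 to 4.34. Bright genes therefore read lower as a whole in the deficient arrays: the median difference was -0.40 over the 9747 genes above the median signal and 0.04 over all genes. Whether this difference in distribution came from the cells or from the measurement was not tested.

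Of the 61 splicing genes, 6 fell in the Rbx1&Sag-deficient group and 0 rose, at an adjusted p under 0.05 (limma, Benjamini-Hochberg over all 19505 genes). The 6 were Srsf1, Srsf9, Prpf8, Prpf18, Sf3a1 and Sf3b2. They are 9.84% of the set, beside 9.49% of all genes called lower and 2.7% called higher. Among genes above the median signal, 18.3% were called lower and 3.02% higher, beside 10.3% and 0 of the 58 splicing genes there. The share called lower was thus near that of all genes and below that among the brighter genes, a difference that was not tested. At a fold change above 1.5 with an unadjusted limma p under 0.05, 10 splicing genes were lower (16.4%, beside 18.1% of all genes) and 2 were higher (3.28%, beside 9.73%, and beside 7.8% of the genes above the median signal, of which 34.4% were lower). In bulk RNA, fewer cells of a type and less RNA per cell cannot be told apart.

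The splicing genes were bright, with a median signal of 10.79 against 4.13 over all genes, and 58 of them lay above the median of all genes and 54 above its upper quartile. Their median difference was -0.21 with 41 genes below and 20 above 0 (67.2% below, beside 47% of all genes and 70.2% of those with signals above the median), and single differences ranged from -1.69 for Srsf1 to 0.89 for Snrpd1. All 3 deficient arrays lay below all 3 control arrays for 12 of the 61 genes (19.7%, beside 19.7% of all genes) and above them for 5 (8.2%, beside 15.2%). Over the genes above the median signal these shares were 35.7% and 8.48%. The sign of the median depended on the scaling: it was -0.40 after centring every array on its median, but 0.15 with quantile normalization, 0.18 with cyclic loess and 0.38 when arrays were centred on the brighter genes. In the last setting the median of all genes was itself 0.64 and that of the genes above the median signal 0.20. Across 17 alternative settings 17 splicing genes stayed below 0 and 10 above 0 wherever they were fitted, and 34 changed sign. Some of these settings change only the test or the genes fitted and leave every difference as deposited. A sign could turn only with a scaling, array weights or an array left out. Prpf40b and Srsf12, both among the 10, and Snrpf had 16 settings, since they are absent from the genes above the median signal.

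**Figure D1:**
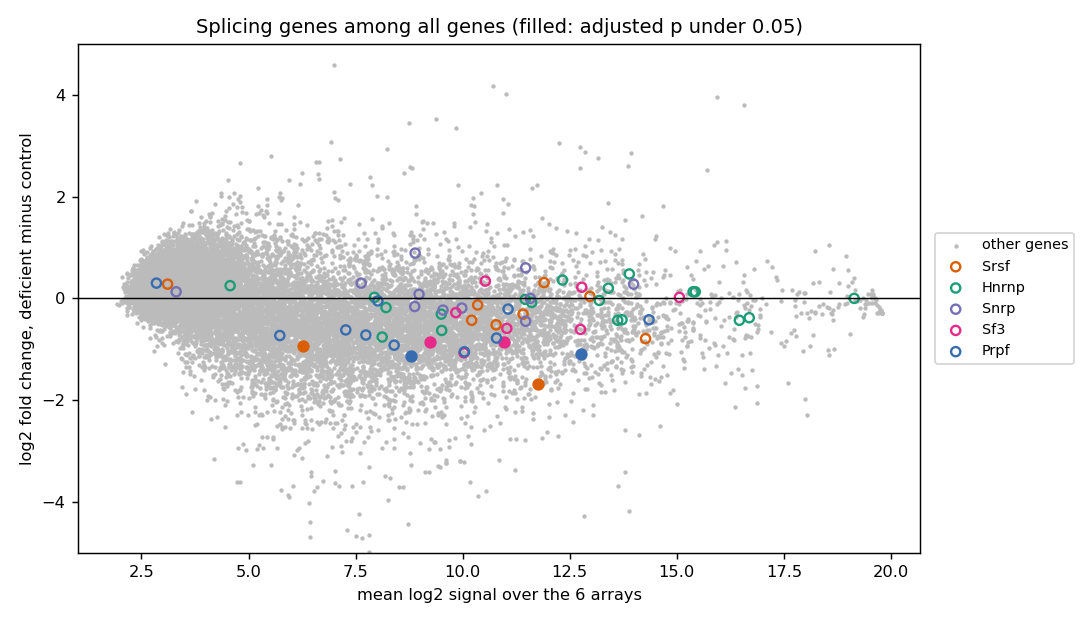
Log2 fold change (Rbx1&Sag-deficient minus control) of each gene against its mean log2 signal over the 6 arrays, with the 5 families of splicing genes in colour and other genes in grey. The 6 filled points are the splicing genes with an adjusted p under 0.05, all below 0, and 7 genes beyond 5 log2 units are not drawn.

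**Figure D2:**
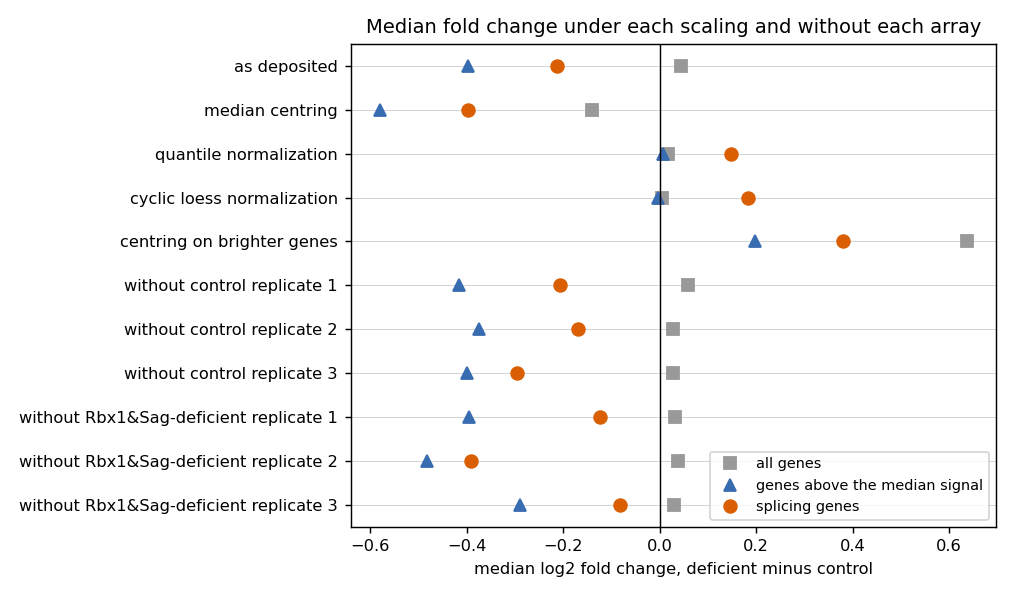
Median log2 fold change of the splicing genes (circles), of all genes (squares) and of the genes above the median signal (triangles) for the values as deposited, 4 other scalings and each array left out. The splicing genes' median is -0.21 as deposited and lies above 0 in 3 of the 4 other scalings, and without any single array it stays below 0.

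The replicate arrays of the deficient group spread more than those of the control group, and not evenly. The median standard deviation of the splicing genes was 0.20 over the control and 0.40 over the deficient arrays. Over all genes it was 0.23 and 0.34, and over those above the median signal 0.25 and 0.43. Deficient array 3 gave the lowest value of its group for 35 of the 61 genes and deficient array 2 the highest for 40. The median deviation from the control mean was -0.20, 0.10 and -0.44 in deficient arrays 1, 2 and 3, so the second array was hardly displaced while the third was displaced most. The brighter genes of the array showed the same order, with -0.38, -0.20 and -0.55.

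**Figure D3:**
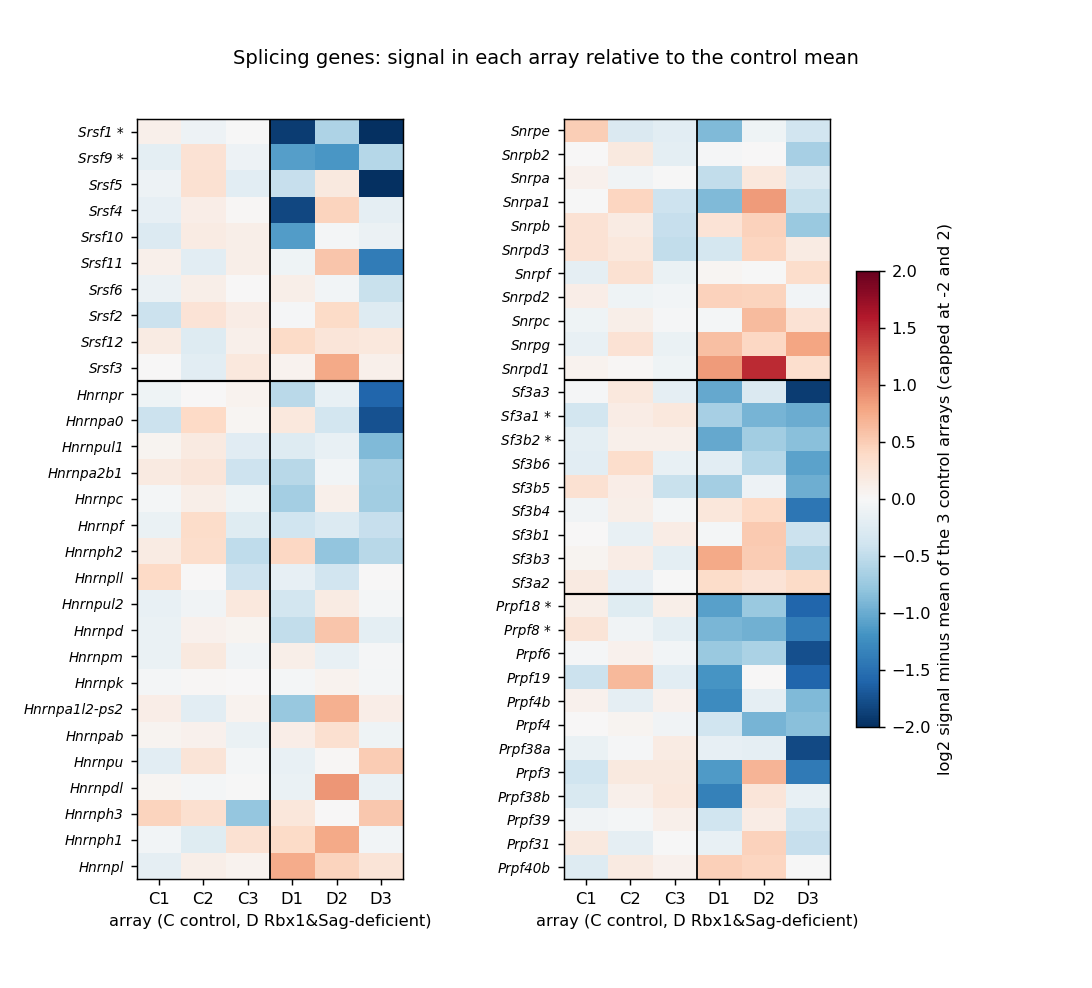
Log2 signal of every splicing gene in each of the 6 arrays, less the mean of its 3 control arrays, with genes grouped by family and an asterisk on the 6 with an adjusted p under 0.05 (colour capped at -2 and 2 log2 units). Deficient array 3 holds many of the darkest blue cells, and the Prpf rows are blue in most deficient arrays while the Snrp rows are mixed.

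Among the snRNP proteins, the first to meet the intron, 0 of 11 passed the test in either direction. Over the genes above the median signal 18.3% were called lower and 3.02% higher. In the family 5 differences lay below and 6 above 0 (45.5% below, beside 70.2% of those brighter genes). Its median was 0.08 (0.45 with quantile normalization, 0.49 with cyclic loess, 0.67 with centring on brighter genes and -0.10 with median centring). Snrpd1, which encodes the Sm ring protein SmD1, had control signals of 8.51, 8.46 and 8.36 and deficient signals of 9.30, 9.93 and 8.78. Every deficient array was above every control array, and the difference of 0.89 (SE 0.30, adjusted p = 0.0807, limma) did not pass the threshold. Its difference stayed between 0.60 and 1.49 over the 17 settings and passed in 5 of them, among them quantile and cyclic loess normalization. Snrpg, another Sm ring protein gene, read 11.02, 11.46 and 11.04 in control and 11.78, 11.59 and 11.96 in deficient arrays. The groups did not overlap here either, and the difference was 0.60 (SE 0.23, adjusted p = 0.115), between 0.42 and 1.2 over the settings.

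The other Sm genes gave smaller differences. Snrpd2 differed by 0.28, Snrpd3 by 0.08, Snrpb by -0.00 and Snrpe by -0.45, with overlapping groups and adjusted p from 0.337 (Snrpe) to 0.996 (Snrpb). Snrpf lay at 3.07 to 3.55 in control and 3.24 to 3.60 in deficient arrays, below the median of every array, near the lower end of the scale. The ring is built of all of these proteins, but how Snrpd1 and Snrpg differed from the rest of the ring was not tested. Of the U1 proteins, Snrpa, which binds a stem loop of U1 snRNA, differed by -0.19 and Snrpc, which helps U1 to hold the 5′ splice site, by 0.30. The U2 proteins Snrpa1 and Snrpb2 differed by -0.16 and -0.23. For Snrpa1 the 3 deficient arrays spanned 8.07 to 9.81, wider than the difference itself.

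The SF3 family clamps U2 on the branch point. Of its 9 genes, 2 fell and 0 rose, beside 18.3% and 3.02% of the genes above the median signal. The family's median difference was -0.59, with 6 genes below and 3 above 0. Under median centring this was -0.77, under quantile normalization -0.12, under cyclic loess -0.08 and with centring on brighter genes 0.01. Sf3b2, an SF3B subunit that contacts pre-mRNA near the branch point, read 9.46, 9.76 and 9.76 in control and 8.64, 8.97 and 8.83 in deficient arrays. The lowest control array exceeded the highest deficient array by more than the spread within either group (SD 0.17 in both), and Sf3b2 fell by 0.85 (SE 0.22, adjusted p = 0.0362, 1.8-fold). Sf3a1, the largest SF3A subunit, read 11.04, 11.56 and 11.62 in control and 10.75, 10.47 and 10.41 in deficient arrays. Control array 1 lay lowest of its group and closest to the deficient arrays, without overlap, and Sf3a1 fell by 0.86 (SE 0.24, adjusted p = 0.0478, 1.82-fold).

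Sf3a3, the SF3A subunit that docks the trimer onto the U2 snRNP, gave the largest difference of the family but did not pass. Its signals were 10.54, 10.77 and 10.39 in control and 9.55, 10.27 and 8.67 in deficient arrays. All deficient arrays were below all control arrays, but they spread over more than a log2 unit, and the difference was -1.07 (SE 0.37, adjusted p = 0.091). The third SF3A gene, Sf3a2, ran the other way, with 10.54, 10.19 and 10.35 in control and 10.72, 10.63 and 10.75 in deficient arrays. Its 3 deficient arrays were above all controls and tight, the difference being 0.34 (SE 0.21, adjusted p = 0.302). Whether the 3 SF3A genes differed from each other in their change was not tested.

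Sf3b1, whose protein is the large scaffold of SF3B and contacts the branch helix, read 15.06, 14.90 and 15.20 in control and 15.01, 15.58 and 14.62 in deficient arrays. The groups overlapped, and the difference of 0.02 had a 95% confidence interval from -0.60 to 0.64. Sf3b3 differed by 0.22, Sf3b4 by -0.28, Sf3b5 by -0.59 and Sf3b6 by -0.61, with adjusted p from 0.178 (Sf3b6) to 0.706 (Sf3b3 and Sf3b4). In Sf3b4 the value of deficient array 3 was 8.53 while the other deficient arrays, at 10.20 and 10.37, exceeded every control array.

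The sequences before the transcription start add a feature of these genes that their symbols do not use. RefSeq start sites of GRCm38.p6 gave a window for 54 of the 61 splicing genes, of which 11 had more than 1 window and were represented by the first listed. The 250 bases before the start were searched on both strands for the ETS core CCGGAAG, the GC box GGGCGG and the CCAAT box CCAAT. The ETS core stood in 16 of the 54 (29.6%) and in 1478 of the 15691 windows of genes on the array (9.42%). It stood in 6 of the 7 SF3 windows, in 3 of 10 Srsf, 3 of 9 Snrp, 2 of 11 Prpf and 2 of 17 Hnrnp windows. The GC box stood in 64.8% of the windows of splicing genes and in 44.5% of all, and in 9 of the 10 Srsf windows. The CCAAT box stood in 46.3% and 36%, and the letters TATAAA in 11.1% and 12.2%. These are matches of letters, with no measurement of binding in these cells. Most splicing genes are bright, and motif shares among bright genes alone were not computed. Among the 5 genes called lower that had a window, 2 held the ETS core, both of them SF3 genes. SF3 genes with the core included Sf3a2, which was higher in every deficient array, as well as Sf3a1 and Sf3b2, which fell.

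The 150 bases directly before the start of 6 SF3 genes are shown to set the core beside the values of each gene, with Srsf1 and Prpf8 added because they fell and lack it. Each is written 5′ to 3′ on the strand of the gene, in the order chromosome and position (GRCm38.p6). Capitals mark the 3 motifs on either strand, the marked matches do not overlap, and a match to the other strand appears as the reverse complement:
Sf3a1, chr11:4160204-4160353, plus strand: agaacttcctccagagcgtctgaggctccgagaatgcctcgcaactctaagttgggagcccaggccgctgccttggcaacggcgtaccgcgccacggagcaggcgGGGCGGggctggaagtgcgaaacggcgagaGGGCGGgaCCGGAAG
Sf3a2, chr10:80798585-80798734, plus strand: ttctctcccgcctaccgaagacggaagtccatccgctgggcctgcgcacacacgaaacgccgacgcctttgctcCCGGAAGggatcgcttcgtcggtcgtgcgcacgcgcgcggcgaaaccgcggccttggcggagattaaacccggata
Sf3a3, chr4:124714711-124714860, plus strand: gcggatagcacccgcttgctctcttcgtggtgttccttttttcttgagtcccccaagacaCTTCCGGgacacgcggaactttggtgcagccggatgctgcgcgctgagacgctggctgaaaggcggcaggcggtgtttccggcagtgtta
Sf3b1, chr1:55027479-55027628, minus strand: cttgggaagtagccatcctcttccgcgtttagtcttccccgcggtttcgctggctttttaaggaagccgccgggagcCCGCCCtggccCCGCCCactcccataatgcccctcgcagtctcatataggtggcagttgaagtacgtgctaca
Sf3b2, chr19:5295458-5295607, minus strand: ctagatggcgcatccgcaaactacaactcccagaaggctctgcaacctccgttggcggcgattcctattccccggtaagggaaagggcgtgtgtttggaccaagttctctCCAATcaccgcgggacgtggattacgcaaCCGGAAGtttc
Sf3b6, chr12:4817458-4817607, plus strand: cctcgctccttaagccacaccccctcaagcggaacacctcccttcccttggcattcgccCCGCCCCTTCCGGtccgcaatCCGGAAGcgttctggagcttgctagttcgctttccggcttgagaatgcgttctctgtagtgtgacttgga
Srsf1, chr11:88047223-88047372, plus strand: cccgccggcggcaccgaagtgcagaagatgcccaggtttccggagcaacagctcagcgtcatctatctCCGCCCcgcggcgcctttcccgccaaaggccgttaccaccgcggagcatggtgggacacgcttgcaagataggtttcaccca
Prpf8, chr11:75486627-75486776, plus strand: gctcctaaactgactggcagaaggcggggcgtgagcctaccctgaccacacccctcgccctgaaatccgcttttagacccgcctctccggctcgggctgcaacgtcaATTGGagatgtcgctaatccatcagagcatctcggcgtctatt

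Counted back from the start, the core begins 7 bases before it in Sf3a1, 11 in Sf3b2, 76 in Sf3a2 and 90 in Sf3a3, and Sf3b6 holds 2 copies at 85 and 70 bases. In Sf3b6 the first copy directly follows a GC box without overlap. The core of Sf3b3 begins 229 bases before the start, outside a stretch of this length, and Sf3b1 has no copy in its 250 bases.

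Of the 12 Prpf genes, 2 fell and 0 rose, 11 differences lay below 0 (91.7%), and the median was -0.72. Over all genes above the median signal, 18.3% were called lower and 70.2% lay below 0, with a median of -0.40. Whether the Prpf genes differed from these or from the other families was not tested. The Prpf median stayed below 0 under every scaling, at -0.905 with median centring, -0.23 with quantile normalization, -0.22 with cyclic loess and -0.13 with centring on brighter genes. Prpf8, the U5 protein at the catalytic centre of the spliceosome, read 13.56, 13.23 and 13.11 in control and 12.38, 12.34 and 11.92 in deficient arrays. The groups were separated by more than the range of either, and Prpf8 fell by 1.09 (SE 0.24, adjusted p = 0.0205, 2.12-fold). Prpf18, a factor of the second catalytic step, read 9.48, 9.12 and 9.47 in control and 8.27, 8.62 and 7.77 in deficient arrays. It did not overlap between groups and fell by 1.14 (SE 0.27, adjusted p = 0.0273, 2.2-fold).

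Prpf6, which bridges U5 and the U4/U6 snRNP, came close to the threshold. Its signals were 10.55, 10.65 and 10.51 in control and 9.82, 9.93 and 8.81 in deficient arrays. The deficient arrays were all lower, array 3 by far the most, and the difference was -1.05 (SE 0.31, adjusted p = 0.0561). Prpf4, of the U4/U6 snRNP, read 6.10, 6.15 and 6.03 against 5.69, 5.16 and 5.25, again without overlap, and differed by -0.73 (SE 0.22, adjusted p = 0.0663). Prpf38a, a factor of spliceosome activation, did not overlap either, but deficient arrays 1 and 2, at 7.94 and 7.92, lay just under the lowest control array at 7.96, and only array 3 stood far below at 6.29.

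The remaining Prpf genes overlapped between groups. Prpf19, the ubiquitin ligase after which the Prpf19 complex is named, read 8.42, 9.50 and 8.65 in control and 7.68, 8.87 and 7.27 in deficient arrays. Replicates within each group differed by more than a log2 unit, and the difference of -0.92 (SE 0.43) had an adjusted p of 0.188. Prpf4b, a kinase associated with the tri-snRNP, differed by -0.78 (adjusted p = 0.112) and Prpf3, a partner of Prpf4, by -0.62 (adjusted p = 0.427), where deficient array 2 at 8.26 exceeded every control array and the others read 6.45 and 6.17. Prpf38b, Prpf39 and Prpf31 differed by -0.42, -0.21 and -0.05. Prpf40b, a U1-associated protein gene, was dim at 2.44 to 3.18 and the only member of the family above 0, at 0.30.

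**Figure D4:**
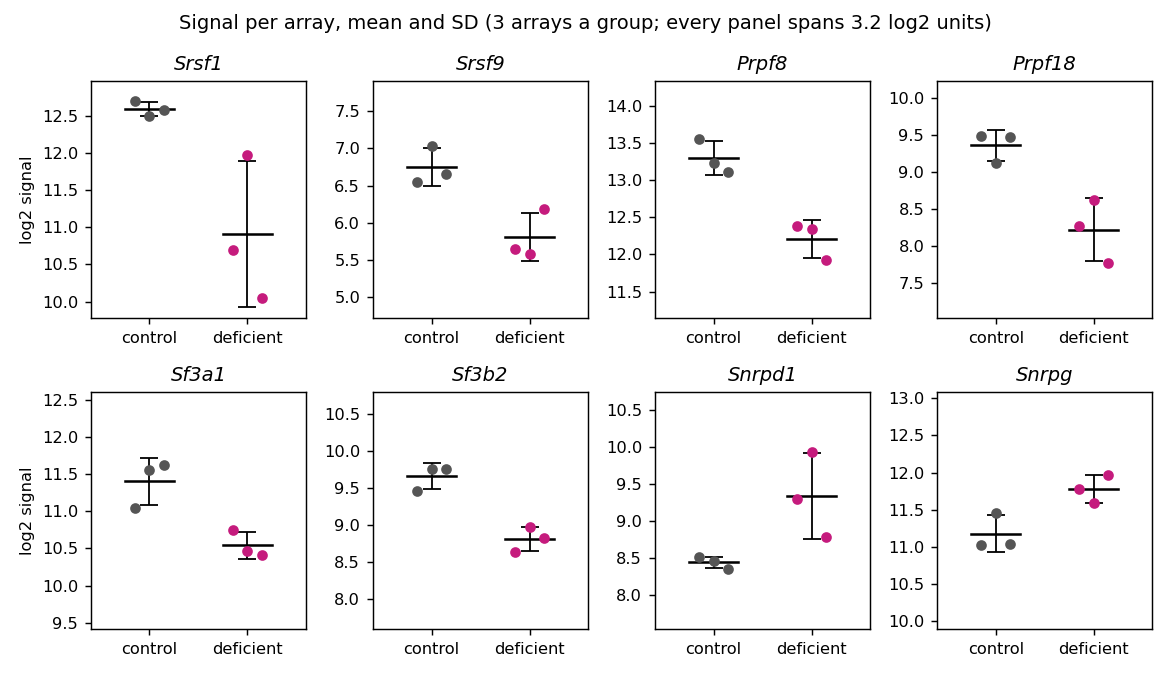
Log2 signal in each control and Rbx1&Sag-deficient array (points), with the mean and SD (n = 3 per group), for the 6 splicing genes that fell and for Snrpd1 and Snrpg. The groups do not overlap in any of the 8 panels, and the deficient arrays of Srsf1 span 10.05 to 11.98 while those of Sf3b2 span 8.64 to 8.97.

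Of the SR proteins, 2 of 10 fell and 0 rose, beside 18.3% and 3.02% of the genes above the median signal. The family's median difference of -0.37 became -0.555 with median centring, 0.08 under quantile as under cyclic loess normalization and 0.22 with centring on brighter genes. Srsf1, the SR protein also called ASF/SF2 that takes part in alternative splicing in T cells, gave the lowest difference of all 61 genes. Its signals were 12.70, 12.50 and 12.59 in control and 10.70, 11.98 and 10.05 in deficient arrays. The control arrays agreed closely (SD 0.10) while the deficient arrays spread widely (SD 0.98), with array 2 nearest to the controls. Srsf1 fell by 1.69 (SE 0.42, 95% confidence interval -2.64 to -0.73, adjusted p = 0.0348), which is 3.22-fold, and its difference lay between -2.22 and -1.09 over the 17 settings. It was the only splicing gene still called lower after centring on brighter genes. Srsf9, a smaller SR protein, read 6.55, 7.04 and 6.65 in control and 5.65, 5.58 and 6.18 in deficient arrays. It did not overlap between groups and fell by 0.94 (SE 0.25, adjusted p = 0.042, 1.92-fold).

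The other 8 SR protein genes did not pass the test. Srsf5 read 14.56, 14.97 and 14.46 in control and 14.20, 14.86 and 12.57 in deficient arrays. Its difference of -0.79 (SE 0.50, adjusted p = 0.322) came mostly from deficient array 3, while array 2 lay within the control range. A single low array also set the values of Srsf4, with deficient array 1 at 9.22 beside 11.48 and 10.86, and of Srsf11, with deficient array 3 at 10.16 beside 11.47 and 12.12. Their differences were -0.52 and -0.31. Srsf10, which represses splicing when it loses its phosphates, differed by -0.43, Srsf6 by -0.13, Srsf2 by 0.04 and Srsf3, which also exports mRNA, by 0.31. Srsf12 was higher in every deficient array, but at signals of only 2.71 to 3.36, below the median of every array.

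The hnRNP genes were the largest family, with 0 of 19 called in either direction. Over the genes above the median signal 18.3% were called lower and 3.02% higher. Of the hnRNP differences 12 lay below and 7 above 0 (63.2% below, beside 70.2% of those brighter genes), with a median of -0.04. This was -0.22 with median centring, 0.37 under quantile as under cyclic loess normalization and 0.55 with centring on brighter genes. Hnrnpll, which drives the exclusion of variable CD45 exons in activated T cells, read 8.70, 8.31 and 7.88 in control and 8.13, 7.92 and 8.31 in deficient arrays. The groups overlapped fully, and the difference of -0.18 (SE 0.26, adjusted p = 0.685) had a 95% confidence interval of -0.77 to 0.41. Hnrnpl, its relative that also acts on CD45 exons, read 13.47, 13.77 and 13.72 in control and 14.40, 14.10 and 13.91 in deficient arrays. All deficient arrays were above all control arrays, and the difference of 0.48 (SE 0.23, adjusted p = 0.184) did not pass. It was above 0 in all 17 settings, from 0.30 to 1.08, and passed in 2.

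Hnrnpr, an RNA-binding protein related to Syncrip, gave the lowest difference of the family. Its signals were 8.41, 8.51 and 8.57 in control and 7.96, 8.35 and 6.91 in deficient arrays. The groups did not overlap, but array 2 lay just under the controls and array 3 far below, and the difference was -0.76 (SE 0.35, adjusted p = 0.177). Hnrnpf, which binds G-rich elements, was lower without overlap by a small margin, with 16.75, 17.24 and 16.64 in control and 16.48, 16.60 and 16.42 in deficient arrays, a difference of -0.38 (adjusted p = 0.308). Hnrnpa0 differed by -0.63 with deficient array 3 at 8.09 and array 1 at 10.03. Hnrnpul1, Hnrnpa2b1 and Hnrnpc, a pre-mRNA packaging protein, lay close together at -0.43, -0.43 and -0.42, with adjusted p from 0.295 (Hnrnpul1) to 0.322 (Hnrnpa2b1).

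For Hnrnpk the arrays of both groups nearly coincided. Hnrnpk, which binds C-rich RNA, read 19.11 to 19.17 in control and 19.10 to 19.21 in deficient arrays, a difference of -0.00 with a 95% confidence interval from -0.45 to 0.44. These signals are close to the highest value of each array (19.59 to 19.93), so a compressed response near the top of the scale was not tested. Hnrnpu, Hnrnpab, Hnrnpdl and Hnrnph1 differed by 0.13, 0.13, 0.20 and 0.36, and Hnrnpd, Hnrnpm and Hnrnpul2 by -0.04, -0.02 and -0.08. Hnrnph2 differed by -0.31, and Hnrnph3, near the median of all genes at 3.68 to 4.98, by 0.25. Hnrnpa1l2-ps2 is by its symbol a pseudogene related to Hnrnpa1, whose transcripts its probes may share, and differed by 0.02.

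Partners of these proteins outside the symbol families were looked at in 11 lists written from general knowledge. Together they held 146 measured genes, of which 16 fell and 1 rose, with a median of -0.31, beside 9.49% called lower and 2.7% called higher over all genes. Nearly all partners were bright, with 142 of the 146 above the median signal. Over all genes there, 18.3% were called lower, 3.02% higher and 70.2% lay below 0, with a median of -0.40. The counts of each list stand beside these shares, and no difference from them was tested. The partners of Prpf8 in the tri-snRNP and the Prpf19 complex gave 3 lower, 0 higher and 24 not called of 27, with 24 below 0 (88.9%) and a median of -0.53. The lowest was Crnkl1, a scaffold of the Prpf19-related complex, with 7.12, 7.21 and 6.55 in control and 5.63, 5.24 and 4.38 in deficient arrays. It fell by 1.88 (SE 0.34, adjusted p = 0.0108), further than any of the 61 splicing genes. Ppie, a cyclophilin of the activated spliceosome, and Plrg1, of the Prpf19 complex, fell by 1.23 and 1.33 (adjusted p = 0.0262 and 0.0337). Eftud2, the U5 GTPase that sits beside Prpf8, differed by -0.40 (adjusted p = 0.377).

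Snrnp200, the U5 helicase that unwinds U4 from U6 and is held by Prpf8, read 9.47, 9.68 and 9.79 in control and 7.89, 8.30 and 8.66 in deficient arrays. The groups did not overlap, and it fell by 1.36 (SE 0.25, adjusted p = 0.0114), the only one of 7 Snrnp genes to pass. Snrnp70, which binds U1 snRNA, differed by 0.71 (adjusted p = 0.171). Of 8 helicases, Dhx16, which drives remodelling of the activated complex, fell by 1.58 (SE 0.29, adjusted p = 0.0114), and Ddx17 differed by -0.93 (adjusted p = 0.0705). Of 4 second step factors, the list in which Prpf18 has its function, Cdc40 read 10.72, 10.61 and 10.50 in control and 9.63, 9.31 and 9.66 in deficient arrays. It fell by 1.08 (SE 0.21, adjusted p = 0.0147) with tight groups, while Slu7 differed by -1.27 (SE 0.51, adjusted p = 0.134).

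Partners of U2 at the branch point passed in 0 of 11, with a median of -0.17, and Phf5a, a small SF3B subunit, differed by -0.59 (adjusted p = 0.131) and U2af2, which reads the polypyrimidine tract, by -0.63 (adjusted p = 0.206). Of 16 genes for snRNP assembly, 2 fell, 0 rose and 15 lay below 0 (93.8%, beside 70.2% of the genes above the median signal). Their median was -0.58, beside -0.40. Those that fell were Tgs1, which adds the trimethyl cap of snRNAs, by 0.85 (SE 0.20, adjusted p = 0.0287) and Snupn, which carries snRNPs into the nucleus, by 0.87 (SE 0.23, adjusted p = 0.0428). Of 10 LSm genes, 8 lay above 0, and 1 passed, Lsm10 of the U7 snRNP, which fell by 1.14 (SE 0.31, adjusted p = 0.0441). Lsm3, a ring protein of U6, differed by 0.57 (adjusted p = 0.19).

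Of 8 kinase genes for SR proteins, Srpk1 read 14.72, 14.90 and 15.13 in control and 14.01, 14.19 and 14.25 in deficient arrays. It fell by 0.77 (SE 0.22, adjusted p = 0.0495) without overlap, and Clk2 differed by -0.75 (adjusted p = 0.0515). The SR-related proteins passed in 0 of 20, Scaf11 at -0.90 (adjusted p = 0.111) and Rnps1 at 0.54 (adjusted p = 0.223) being those with the smallest p, and the exon junction complex in 0 of 4, where Rbm8a differed by -0.10 (adjusted p = 0.832).

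Other RNA-binding regulators gave 6 lower and 1 higher of 33, with a median of -0.43. Celf2, which regulates signalling exons in human T cells, read 13.49, 13.74 and 14.01 in control and 12.17, 12.41 and 11.29 in deficient arrays. It fell by 1.79 (SE 0.31, adjusted p = 0.00966). Also lower were Rbm5 by 1.16 (adjusted p = 0.0236), Rbm10 by 1.18 (0.0237), Mbnl1 by 1.11 (0.0304) and Tia1 by 1.55 (0.0321). Tial1 fell by 0.92, with an adjusted p just under the threshold. Sfpq, a paraspeckle protein that acts on CD45 exons in human T cells, read 14.47, 14.53 and 14.48 in control and 15.43, 15.52 and 15.32 in deficient arrays. Both groups were tight and far apart, and Sfpq rose by 0.93 (SE 0.20, adjusted p = 0.0197), the only gene of the lists to rise in the values as deposited. Only the 2 partners of each list with the smallest p were followed over the settings. Among them, Rnps1 (1.05, 1.07 and 1.13) and Lsm3 (1.13, 1.11 and 1.16) also passed as higher under quantile normalization, cyclic loess and centring on brighter genes. Snrnp70 (1.3) passed as higher under the last. Calls among the partners depended on the setting as those of the splicing genes did: of the 17 settings, Celf2 passed in 14, Crnkl1 and Sfpq in 13, Dhx16 in 12, Snrnp200 in 11, Cdc40 in 10, Ppie in 9, Tgs1 in 8, Lsm10 in 7, Snupn in 6 and Srpk1 in 3. Srpk1 was lost under robust moderation (adjusted p = 0.0508) and read -0.17 with centring on brighter genes. The other partners, Rbm5, Rbm10, Mbnl1, Tia1, Tial1 and Plrg1 among them, were not followed over the settings.

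The calls on the 6 splicing genes depended on the arrays included. Without control array 1, 2 or 3 in turn, 0 splicing genes passed, without deficient array 1 only Prpf8 passed, without deficient array 2 there were 9 lower calls (Prpf8, Prpf18, Sf3b2 and Srsf1 among them) and without deficient array 3 there were 3 (Prpf18, Prpf8 and Srsf9) besides Snrpd1 higher. Prpf8 thus passed without any one of the deficient arrays (adjusted p = 0.0382, 0.0213 and 0.0355, limma). The differences kept their sign throughout, but the genes were picked for their calls in these same data. Settings that change only the test or the genes fitted could not turn a sign. Over all 17 settings Prpf8 lay between -1.27 and -0.49, Prpf18 between -1.34 and -0.54 and Sf3b2 between -1.03 and -0.25. Srsf9 lay between -1.13 and -0.35 and Sf3a1 between -1.05 and -0.27. The 6 genes passed in 10 (Prpf8), 9 (Prpf18 and Srsf1), 7 (Sf3b2), 6 (Srsf9) and 5 (Sf3a1) of the 17. By the t test that the methods name, adjusted the same way, 0 of the 61 passed, and 8 were lower and 3 higher at an unadjusted p under 0.05.

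Some markers of cells other than T cells differed between groups and others did not. The summed B cell markers lay at 7.31 to 7.52 in control and 6.23 to 6.48 in deficient arrays on the log2 scale (5 of 6 measured). Cd79b, part of the B cell receptor, carried this and fell by 1.81, while Ms4a1, Pax5 and Ebf1 differed by 0.37, 0.42 and 0.36 and Cd79a by -0.04. Myeloid markers lay at 5.88 to 6.60 and 5.68 to 5.85 (5 of 6), where Lyz2, a lysozyme gene, fell by 1.91 and Csf1r differed by -0.58, but Itgam and Adgre1 were higher in every deficient array, by 0.48 and 0.31. CD8 T and NK cell markers lay at 9.08 to 9.65 and 8.77 to 9.23 (5 of 5). Of these Nkg7, a cytotoxic granule protein gene, fell by 2.84 and Klrb1c by 2.00, whereas Cd8b1, at 8.42 to 9.09 above the upper quartile of every array, differed by -0.02. Ncr1 was higher in every deficient array, by 0.32, at low signals of 2.67 to 3.24. The defining markers Cd79a, at 3.70 to 3.96, Ms4a1, at 2.63 to 3.26, and Cd8a, at 3.30 to 3.94, lay below the median of every array. Summed T cell markers were also lower in the deficient arrays, at 17.97 to 18.75 against 18.97 to 19.27 (5 of 6). So were summed Treg markers other than Foxp3, which was not analysed here, at 15.39 to 16.29 against 16.82 to 17.25. Of these, Tnfrsf18 fell by 1.81 and Ikzf2 by 1.54, while Ikzf4 differed by -0.74, Ctla4 by -0.68 and Il2ra by -0.13. The groups overlapped for Ctla4 and Il2ra. The part of these shifts in the values of the splicing genes was not tested.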

How the data were processed

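The authors pooled 2 to 3 mice per sample, amplified the RNA with a pico kit and hybridised 3 samples per genotype to Clariom S mouse arrays. Log2 signals made with Expression Console 1.4 were deposited. Algorithm, annotation and genome build: not given in the sources used here. Of 22206 probe sets, 19572 had 1 gene symbol in the platform annotation, 0 several and 2634 none. For each symbol the probe set of highest mean signal was taken. All 61 splicing genes had 1 probe set and were found in the RefSeq table of GRCm38.p6, and 9 other symbols of that table that match the rule were not analysed here.

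Differences were fitted on the deposited log2 values in R 4.3.3 with limma 3.58.1 (lmFit, eBayes), two-sided and without covariates. Benjamini-Hochberg adjustment ran over 19505 genes, with a threshold of 0.05. The procedure was tested on simulated data with independent noise. The simulation built in no difference in upper quartile between the groups, so it does not bear on the scaling. The small number of arrays sets the precision, and an exact test of 3 against 3 could not go below p = 0.1. A limma p-value sets a difference against the spread between pools, with the variance of each gene drawn toward a value common to all genes. For Hnrnpk the SDs were 0.03 in control and 0.06 in deficient arrays, while the SE was 0.20. Signals of different genes come from different probes, so a level is placed only within the distribution of its array, and no order of levels between genes is read. The splicing genes, lists and alternatives were chosen with earlier results of these data known. Named genes are the splicing genes that passed, in each family the one with the largest difference among those that did not, Hnrnpll, Hnrnpl, Srsf1 and Srsf5, the 2 genes of each list with the smallest p, Rbx1 and Rnf7. Other genes were named after their values were seen. The alternatives were the methods' t test, other moderation (an intensity trend, robust), array weights, 4 scalings, 2 choices of probe sets or genes, a replicate block and each array left out.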

Additional observations from a re-analysis of the deposited data

How the results depend on the processing

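The 6 splicing genes called lower and 0 called higher became 0 and 0 by the methods' t test, 3 and 0 with an intensity trend, 7 and 1 with array weights, 0 and 2 after quantile normalization, 0 and 3 after cyclic loess and 1 and 12 after centring on brighter genes. With each array left out they ranged from 0 to 9 lower and from 0 to 1 higher. The median difference of the splicing genes was -0.21 as deposited and moved to 0.15, 0.18 and 0.38 under the last 3 scalings, and from -0.39 to -0.08 with each array left out. Over all genes, 1851 lower and 527 higher became 23 and 7 by the t test, 733 and 535 after quantile normalization, 876 and 631 after cyclic loess and 910 and 6966 after centring on brighter genes. The higher count was 279 after median centring and 324 among genes above the median signal alone, and leaving out each array gave 544 to 2611 lower and 76 to 1012 higher. The causes were not tested, although leaving out an array leaves fewer arrays.

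Directions turned in few named genes, but most of these were picked for their values in these same data. Of all 61 splicing genes, 34 changed sign. Hnrnpll was 0.42 after quantile normalization, 0.37 after cyclic loess, 0.42 after centring on brighter genes and 0.025 without control array 1 (-0.39 to 0.025 with each array left out). Rbm8a was 0.40, 0.42 and 0.49 under the same scalings, 0.013 without control array 2 and 0.13 without deficient array 1 (-0.30 to 0.13). Rnf7 was 0.023 after centring on brighter genes. The other 33 named genes kept their sign or reached 0 (Phf5a) in all 17 alternatives. Alternatives that change only the test or the genes fitted could not turn a sign. Same-numbered arrays correlated by 0.01, 0.11 and 0.02 in their deviations from the group means, so the numbers were not taken as pairs. With the replicate number as a block, 6 splicing genes were lower and 0 higher, 4 of them the same as without it, and 2010 genes were lower and 534 higher.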
